A study of Mus musculus with 6 samples.

Results

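Proteasome subunit genes were examined in mouse B lymphoma cells that carried a short hairpin RNA against Dhx9 or a control hairpin. The genes were those whose platform symbol is Psma, Psmb, Psmc, Psmd, Psme or Psmg followed by a number, without the interferon-inducible Psmb8, Psmb9, Psmb10, Psme1 and Psme2. This name rule found 41 genes, each with 1 probe set, among 18784 genes measured. It uses no measured value. They comprise 15 genes of the 20S core, 17 of the 19S regulatory particle, 7 of assembly chaperones and 2 of other activators.

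All 6 arrays were from cultured lymphomas of the genotype Arf-/-, Eµ-myc and Bcl-2, which lack the tumour suppressor Arf and overexpress MYC from an immunoglobulin enhancer and the survival protein BCL-2. The control group was 3 arrays of cells with the hairpin Rluc.713, named for Renilla luciferase, and the other group was 3 arrays of cells with Dhx9.1241; the labels give no drug, time or separate culture for any array. Each group rests on 1 hairpin, and the cells grew on irradiated Arf-/- embryonic fibroblasts, whose RNA may be part of the sample. The sample titles name Dhx29 in place of Dhx9, so the group is called by its hairpin. Levels are RMA values (robust multi-array average) on a log2 scale, and every change is Dhx9.1241 minus Rluc.713 on that scale. In a bulk sample, less RNA per cell and fewer cells of a type cannot be told apart. The p-values reflect only how far these arrays differ within a hairpin, and that spread may be technical.

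The proteasome is the protease that degrades most short-lived and misfolded proteins of the cell after they are tagged with ubiquitin. Its barrel-shaped 20S core is made of outer alpha rings, which gate the entrance, and inner beta rings, which hold the cutting sites. The 19S regulatory particle caps the barrel, binds ubiquitin chains, removes them and threads the substrate in with a ring of ATPases. Dedicated chaperones assemble both parts. Lymphoid cells also make inducible catalytic subunits, which replace the standard ones and favour peptides for antigen presentation.

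The genes of the family lie on 16 chromosomes, with 8 of the 41 on chromosome 11. A feature many of their promoters share is the ETS-type motif CCGGAAG, the core bound by factors such as GABP. It was searched on both strands in the RefSeq promoter windows of assembly GRCm38.p6, which run from 250 bases before to 50 bases after the start site. The search did not cover every chromosome, and it held windows for 33 of the 41 genes, 35 windows in all. The motif was in 15 of these 35 windows (42.9%) and in 8.86% of all 32851 windows searched. It was in 19.3% of the 9709 windows of the brighter genes, those whose mean array level reached the median of all genes. The median GC content was 59.0% in the family's windows, 52.7% over all windows and 61.0% over the windows of the brighter genes. By part, 9 of 14 regulatory particle genes had a match, 1 of 11 core genes, 2 of 6 chaperone genes and both other activators. The last 120 bases before the start site are shown for 4 regulatory particle genes with a match and for the core gene Psmb6 without one, with CCGGAAG or its reverse complement in capitals, 5′ to 3′ along the gene.
Psmc1, chr12:100110082-100110201, + strand: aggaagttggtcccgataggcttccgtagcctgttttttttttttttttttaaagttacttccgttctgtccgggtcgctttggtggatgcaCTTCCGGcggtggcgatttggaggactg
Psmc6, chr14:45329704-45329823, + strand: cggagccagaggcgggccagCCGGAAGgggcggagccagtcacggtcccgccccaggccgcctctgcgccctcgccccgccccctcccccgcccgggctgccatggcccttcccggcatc
Psmd2, chr16:20651532-20651651, + strand: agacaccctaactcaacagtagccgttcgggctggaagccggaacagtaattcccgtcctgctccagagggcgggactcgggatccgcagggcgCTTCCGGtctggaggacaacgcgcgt
Psmd6, chr14:14120946-14121065, - strand: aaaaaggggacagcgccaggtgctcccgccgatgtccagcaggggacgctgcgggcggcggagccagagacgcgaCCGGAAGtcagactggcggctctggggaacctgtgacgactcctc
Psmb6, chr11:70525237-70525356, + strand: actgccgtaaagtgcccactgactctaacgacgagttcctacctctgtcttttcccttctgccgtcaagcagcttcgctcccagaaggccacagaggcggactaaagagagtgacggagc

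In these stretches the match begins 28 bases before the start site in Psmc1, 100 in Psmc6, 26 in Psmd2 and 45 in Psmd6. A match is only a run of letters and not a measured binding site. The antioxidant-response-like motif TGACNNNGC is of the kind bound by NFE2L1 and NFE2L2 with small MAF proteins. It was in 14.3% of the family's windows, 12.4% of all windows and 14.4% of those of the brighter genes. The CCAAT box was in 37.1%, 37.4% and 38.4%. The palindromic motif of nuclear respiratory factor 1, searched as its perfect match, was in 2 of the 35 windows (5.71%), in 0.971% of all windows and in 2.27% of those of the brighter genes. These motifs were also searched on both strands, and none of the 4 motifs contains another. The change between hairpins was described for genes with and without the ETS-type match: the median was -0.041 for the 14 genes with one, ranging from -0.14 to 0.1, and -0.002 for the 19 without, ranging from -0.13 to 0.18.

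The 20S core, the regulatory particle and the chaperones all stayed close to the control level in the Dhx9.1241 cells. None of the 41 genes passed the threshold, an adjusted p under 0.05 from limma with Benjamini-Hochberg adjustment over all genes; of all genes, 2.07% were higher and 1.07% lower by that rule, 3.14% together. At an unadjusted p under 0.05, 1 member was higher (Psmd10) and 3 were lower (Psmb1, Psmc6 and Psmd5), 9.76% of the family. Over all genes those shares were 8.50% and 5.63%, or 14.1% together, and 22.1% of the brighter genes reached that p in either direction. The changes ran from -0.20 for Psmb1 to 0.18 for Psma3. Their median size regardless of sign was 0.051, against 0.054 over all genes and 0.065 over the brighter genes. The hairpin's own gene, Dhx9, a helicase that unwinds RNA and DNA, had a change of -0.99 (95% interval -1.12 to -0.87).

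The arrays were precise enough to bound these changes on the RMA scale, which can compress folds. The standard error of a member's change was 0.051 in the median (0.061 over all genes) and ran from 0.044 to 0.101. For 39 of the 41 genes the 95% interval of the change lay within 0.3 on the log2 scale in either direction, a 1.23-fold difference, as it did for 83.4% of all genes. The 2 exceptions were Psmb1, whose interval reached down to -0.32, and Psma3, whose interval reached up to 0.41. The 39 include Psma8 and Psmb11, with low mean signals of 5.76 and 7.56 and no call of detection. For these genes the interval bounds the signal and may not bound the transcript. All intervals are per gene and are not widened for the number of genes. The plot of changes by gene gives all of them.

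**Figure D1:**
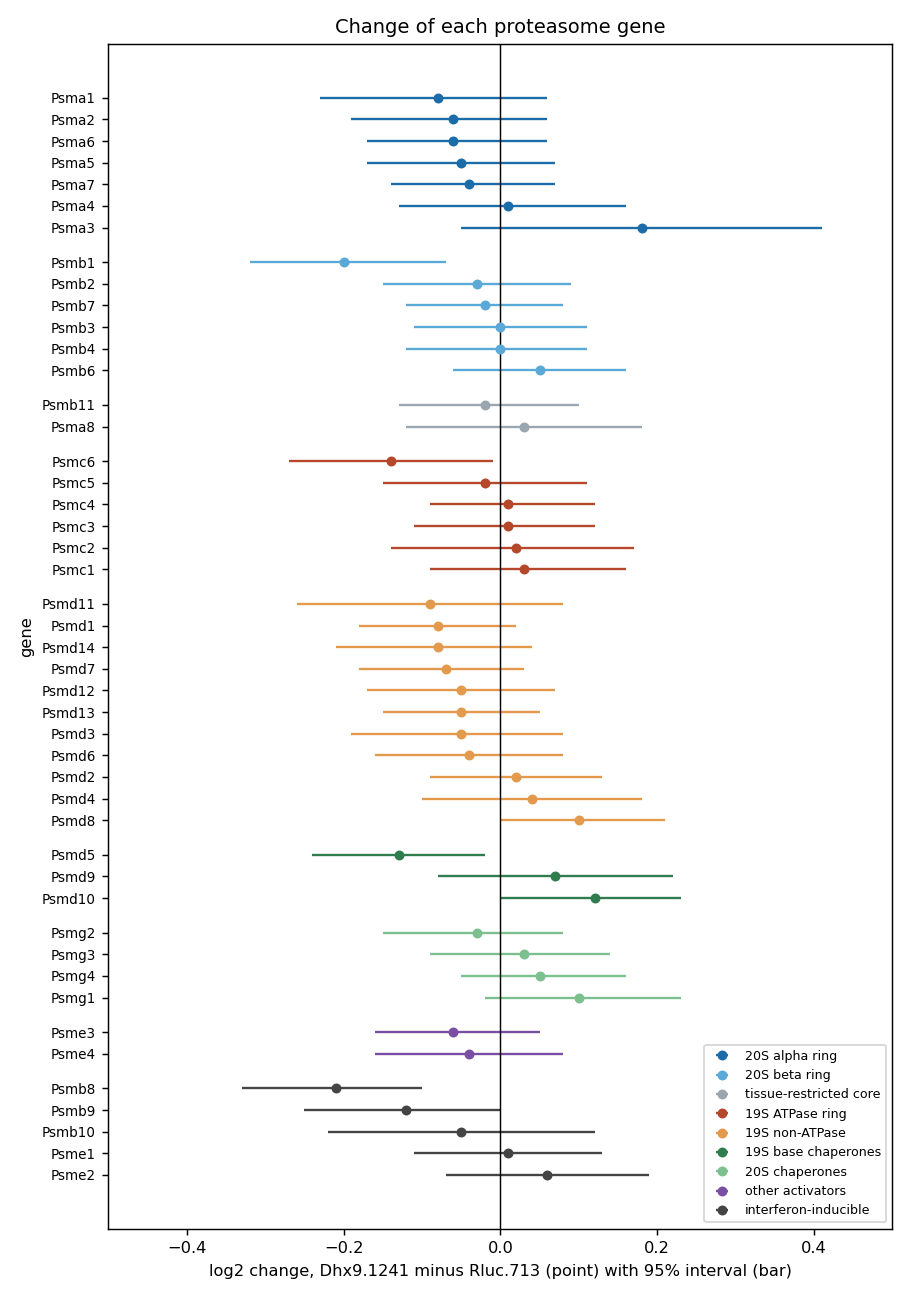
Log2 change, Dhx9.1241 minus Rluc.713, on the horizontal axis for the 41 family genes and the 5 interferon-inducible genes, with points for the estimates from 3 arrays a group and bars for the limma 95% intervals; colours mark the parts of the complex. All points lie between -0.21 and 0.18, and most bars cross 0.

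The 3 arrays of each hairpin did not overlap for 13 of the 41 genes, 5 higher and 8 lower in Dhx9.1241, which is 31.7% of the family. Over all genes the shares were 11.6% higher and 8.51% lower, 20.1% together, and 31.5% of the brighter genes had no overlap. Of the family, 39 genes were among the brighter ones, all but Psma8 and Psmb11.

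The alpha ring, the gate of the core, had 7 genes, of which none passed and 5 had a negative change, with a median of -0.051. Psma3 had the largest positive change of the family and also its widest spread. Its levels were 10.14, 10.49 and 10.17 on the control arrays and 10.33, 10.46 and 10.56 on the Dhx9.1241 arrays. The groups overlapped, because control replicate 2 was higher than 2 of the Dhx9.1241 arrays. The change was 0.18 (SE 0.101, 95% interval -0.05 to 0.41, adjusted p = 0.522 by limma), and without control replicate 2 it was 0.29, the largest change of any member in any alternative run.

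Psma1 had the most negative change of the ring. It stood at 12.45, 12.39 and 12.5 in the control and at 12.3, 12.33 and 12.47 in Dhx9.1241, where replicate 3 lay among the controls. Its change was -0.08 (SE 0.061, adjusted p = 0.683). The changes of Psma2, Psma4, Psma5, Psma6 and Psma7 lay between -0.06 and 0.01.

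In the beta ring, 6 standard subunit genes were measured, and Psmb1 had the most negative change of the family. It encodes a structural subunit of the ring that does not itself cut. Its levels were 11.58, 11.73 and 11.66 in the control and 11.45, 11.43 and 11.49 in Dhx9.1241. Every Dhx9.1241 array was below every control array, by at least the gap between 11.49 and 11.58. The mean was 11.65 ± 0.075 in the control and 11.45 ± 0.031 in Dhx9.1241 (SD, n = 3), a level 1.15-fold lower, with a change of -0.20 (SE 0.054, 95% interval -0.32 to -0.07). With an unadjusted p of 0.00601 its adjusted p was 0.112 (limma), so it did not pass over all genes.

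The verdict on Psmb1 depended on the setting. It passed in 6 of 16 alternative analyses: with array weights (adjusted p = 0.018), with a robust variance trend (0.0181), without control replicate 1 (0.0358), when only the brighter genes were tested (0.0392), after cyclic loess (0.0417) and after a second quantile normalization (0.0435). In the other 10 its adjusted p by limma lay between 0.0791 and 0.349. The change itself ran from -0.24 to -0.16 over all 16. No other member passed in any of them. In the 6 where Psmb1 passed, between 848 and 1211 of all genes tested passed, against 590 in the main fit.

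The catalytic subunit genes of the ring that were measured were close to level. Psmb6, the subunit with caspase-like activity, stood at 11.47, 11.51 and 11.52 in the control and 11.53, 11.6 and 11.52 in Dhx9.1241. The groups were parted only beyond the second decimal, at about 11.52, and the change was 0.05 (95% interval -0.06 to 0.16, adjusted p = 0.775). Psmb7, the subunit with trypsin-like activity, stood at 11.5, 11.49 and 11.48 against 11.45, 11.49 and 11.47, with overlapping groups and a change of -0.02 (interval -0.12 to 0.08, adjusted p = 0.939). Psmb2, Psmb3 and Psmb4, structural subunits, had changes between -0.03 and less than 0.01, and each interval lay between -0.15 and 0.11.

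The 2 core genes of restricted tissues had low signals. Psma8, the alpha subunit of testis, stood at 5.83, 5.73 and 5.69 in the control and at 5.88, 5.77 and 5.69 in Dhx9.1241. Psmb11, the beta subunit of the thymus cortex, stood at 7.64, 7.52 and 7.55 against 7.55 on all 3 Dhx9.1241 arrays. In both genes the groups overlapped, with changes of 0.03 and -0.02, and the files give no call of detection for them.

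In the regulatory particle, none of the 17 genes passed, 7 had a positive and 10 a negative change, and the median was -0.04. The median over the 15 core genes was -0.021. Regardless of sign, the median size was 0.049 in the particle and 0.037 in the core, and the difference between the parts was not tested. Among the 6 ATPase genes, whose products pull the substrate into the core, the median was 0.008. The changes of the other 5 lay between -0.02 and 0.03, while Psmc6 was lower. It stood at 11.46, 11.53 and 11.6 in the control and at 11.4, 11.33 and 11.43 in Dhx9.1241, with no overlap. Its change was -0.14 (SE 0.055, interval -0.27 to -0.01), with an unadjusted p of 0.0356 and an adjusted p of 0.296 by limma. Psmc1, with the largest positive change of the ring at 0.03, stood at 11.22, 11.35 and 11.32 against 11.39, 11.27 and 11.33.

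Among the 11 non-ATPase genes, 8 had a negative change and the median was -0.052. Psmd11, whose product clamps the particle to the core, had the most negative change, -0.09 (SE 0.073, adjusted p = 0.741). Its control arrays differed among themselves more than the groups did, at 11.34, 11.51 and 11.6 against 11.42, 11.32 and 11.45. Psmd8, a subunit of the lid, went the other way. It stood at 12.38, 12.45 and 12.38 in the control and at 12.49, 12.5 and 12.53 in Dhx9.1241, with no overlap, a change of 0.10 (SE 0.047, interval from just below 0 to 0.21) and an adjusted p of 0.387.

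The remaining genes of the lid and base moved little. Psmd14, which encodes the deubiquitinase of the particle, had a change of -0.08 (interval -0.21 to 0.04), with overlapping groups. The scaffold subunit genes Psmd1 and Psmd2 had changes of -0.08 and 0.02, and the ubiquitin receptor gene Psmd4 one of 0.04. Psmd1 was the tightest of these, at 12.75, 12.74 and 12.73 in the control and 12.68, 12.65 and 12.66 in Dhx9.1241. Its groups did not overlap, yet its adjusted p was 0.525. Psmd7 (-0.07) and Psmd13 (-0.05) also had groups that did not overlap, both lower in Dhx9.1241, while Psmd3, Psmd6 and Psmd12 overlapped, with changes between -0.05 and -0.04.

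The assembly chaperones had a median on the other side of 0, at 0.052 for 7 genes, and 5 of the 7 had a positive change. None passed. Of the 3 chaperone genes of the 19S base, which guide the ATPases into their ring, Psmd10 and Psmd5 lay on opposite sides. Psmd10, also known as gankyrin, stood at 10.8, 10.9 and 10.89 in the control and at 11, 10.98 and 10.94 in Dhx9.1241. All Dhx9.1241 arrays were higher, with a change of 0.12 (SE 0.05, interval from just above 0 to 0.23), an unadjusted p of 0.0486 and an adjusted p of 0.349 by limma. Psmd5 stood at 11.3, 11.35 and 11.28 in the control and at 11.2, 11.14 and 11.2 in Dhx9.1241. All Dhx9.1241 arrays were lower, with a change of -0.13 (SE 0.048, interval -0.24 to -0.02), an unadjusted p of 0.0223 and an adjusted p of 0.23. Psmd9, the third of them, overlapped between the groups, with a change of 0.07.

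The 4 chaperone genes of the core, whose products build the alpha ring in pairs, had a median change of 0.038. Psmg1 had the largest positive change, with levels of 11.05, 11.13 and 11.15 in the control and 11.17, 11.19 and 11.27 in Dhx9.1241. Its groups did not overlap, but only the gap from 11.15 to 11.17 parted them; the change was 0.10 (SE 0.053, interval -0.02 to 0.23, adjusted p = 0.48). Its partner Psmg2 had the most negative change of the 4, -0.03 with overlapping groups. Psmg2 stood at 12.03, 12.07 and 12.08 against 11.99, 12 and 12.09. Psmg3 and Psmg4, the other pair, had changes of 0.03 and 0.05.

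The 2 other activators, caps that open the core without ATP, were both slightly lower in the mean. Psme3, the cap of the nucleus, stood at 13.48, 13.53 and 13.49 in the control and 13.47, 13.4 and 13.46 in Dhx9.1241. The groups were parted only by the step from 13.47 to 13.48, and the change was -0.06 (interval -0.16 to 0.05, adjusted p = 0.753). Psme4, which encodes a single-chain activator, stood at 11.55, 11.6 and 11.66 against 11.6, 11.5 and 11.58, with a change of -0.04 (interval -0.16 to 0.08, adjusted p = 0.865).

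**Figure D2:**
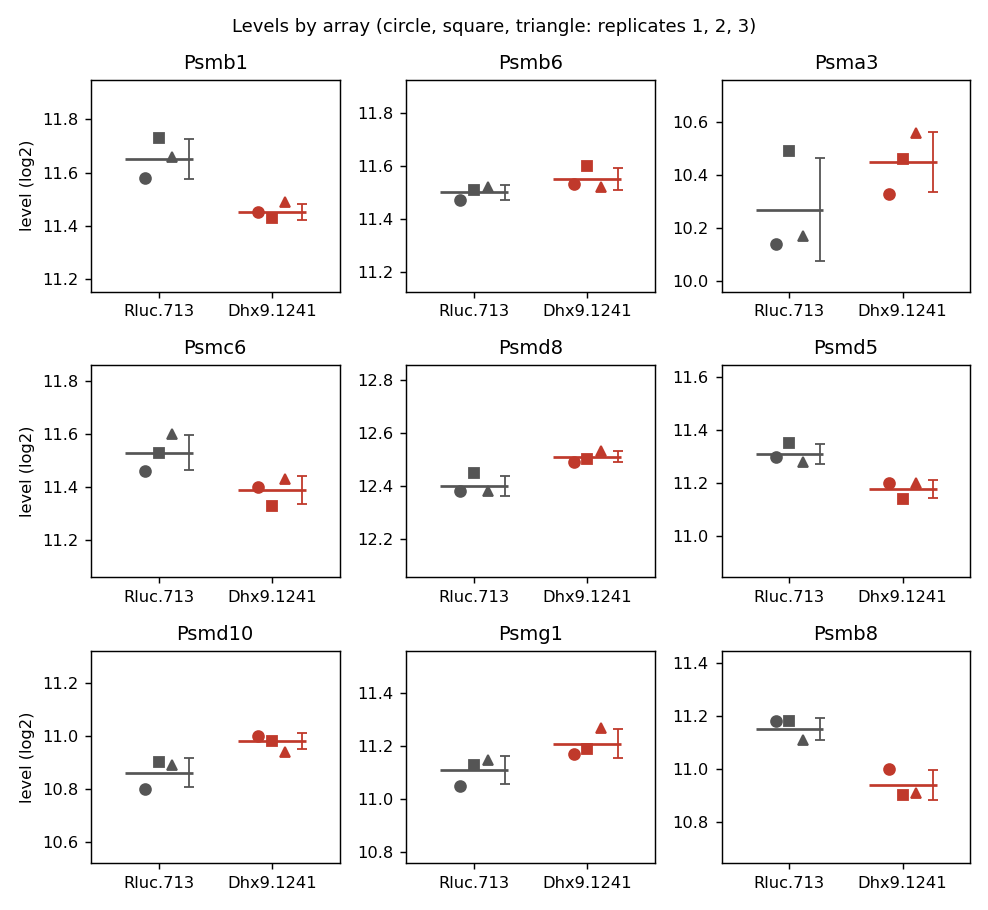
Log2 level on each array for 9 genes, with the Rluc.713 arrays in grey and the Dhx9.1241 arrays in red (circle, square and triangle for replicates 1, 2 and 3); horizontal lines are group means, error bars are SDs of 3 arrays, and all panels span the same range of log2 units. Psmb1, Psmc6, Psmd5 and Psmb8 lie lower and Psmd8, Psmd10 and Psmg1 higher on all Dhx9.1241 arrays, while Psma3 overlaps. Psmb6 is also higher on all of them, but its groups are parted only beyond the second decimal.

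The medians of the parts varied among the control arrays by about as much as between hairpins, or by more. Each gene was set against its own mean over the 6 arrays, and the median of these deviations was taken per part and array. For the regulatory particle it was -0.039, 0.037 and 0.047 on control replicates 1, 2 and 3, and 0.001, -0.046 and -0.009 on the Dhx9.1241 replicates. For the core it was 0.021, -0.001 and 0.013 against -0.008, -0.027 and -0.002. For the chaperones it was -0.025, 0.023 and -0.021 against 0.01, 0.045 and 0.007. The regulatory particle and the chaperones overlapped between the groups, and the core groups were parted only by the step from -0.001 to -0.002.

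The median of the regulatory particle shifted with which array was left out. Control replicate 1 was the lowest control for 14 of its 17 genes (82.4%), for 7 of the 15 core genes and for 4 of the 7 chaperone genes. The same held for 38.8% of all genes and 64.3% of the brighter genes. Without control replicate 1 the median change of the particle was -0.06, and without Dhx9.1241 replicate 2 it was -0.006; without control replicate 2 or 3 it was -0.023 or -0.017, and leaving out Dhx9.1241 replicate 1 or 3 gave -0.057 or -0.03. The family's median of -0.021 became -0.049 without control replicate 1; leaving out Dhx9.1241 replicate 1 gave -0.032 and leaving out replicate 2 gave -0.008. The chaperone median stayed between 0.039 and 0.072 when any 1 array was left out.

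**Figure D3:**
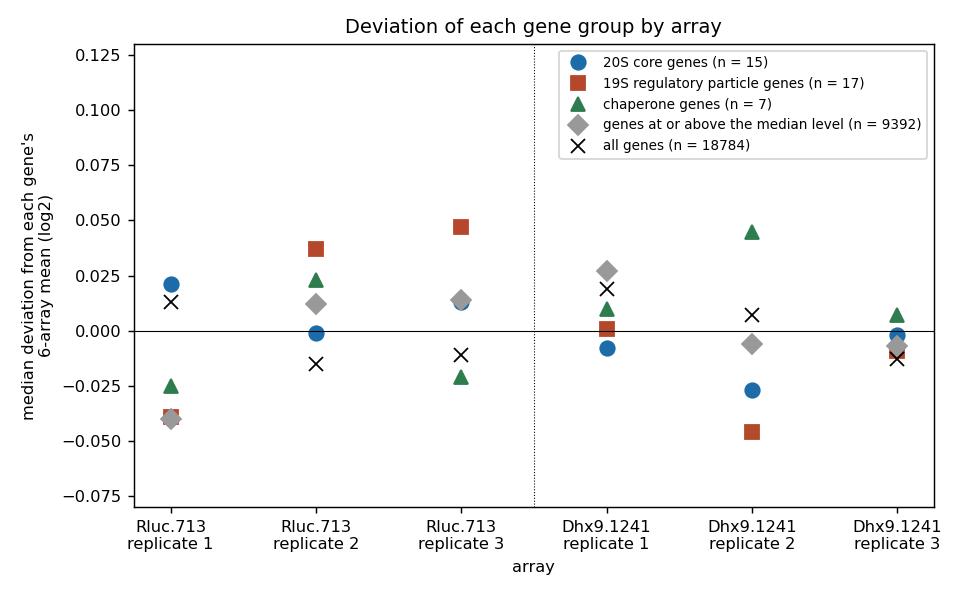
Median deviation, in log2 units, of the genes of each part from their own mean over 6 arrays, for each array; grey diamonds are the brighter genes, as above, and crosses are all genes. The regulatory particle (squares) is at -0.039 on control replicate 1, like the grey diamond at -0.04, and at 0.037 and 0.047 on the other controls.

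The 5 interferon-inducible genes, left out by the name rule, were described beside the standard ones, and none passed. Psmb8, a catalytic subunit of the inducible core, stood at 11.18, 11.18 and 11.11 in the control and 11, 10.9 and 10.91 in Dhx9.1241. All Dhx9.1241 arrays were lower, a 1.16-fold difference with a change of -0.21 (SE 0.052, interval -0.33 to -0.10) and an adjusted p of 0.0744 by limma. It passed in 4 of 16 alternatives: with a robust variance trend (0.0151), when only the brighter genes were tested (0.0239), with array weights (0.0301) and after cyclic loess (0.0493). Psmb9 stood at 10.87, 10.93 and 10.88 against 10.86, 10.74 and 10.71, a change of -0.12 (adjusted p = 0.377 by limma). Its groups were parted only by the step from 10.86 to 10.87. Psmb10 stood at 10.96, 10.95 and 10.75 against 10.93, 10.82 and 10.76, with overlapping groups and a change of -0.05. The inducible activator genes Psme1 and Psme2 had changes of 0.01 and 0.06, also with overlap.

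Psmb9 takes the place of Psmb6 in the inducible core, and Psmb10 that of Psmb7, so each pair was followed within arrays. These 2 pairs were chosen after the values were seen. The log2 ratio of Psmb9 to Psmb6, set to a control mean of 0, was 0.01, 0.02 and -0.04 on the control arrays and -0.07, -0.25 and -0.20 on the Dhx9.1241 arrays. All Dhx9.1241 arrays were lower, with a mean difference of -0.17. For Psmb10 to Psmb7 the difference was -0.03 and the groups overlapped. Neither difference was tested.

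**Figure D4:**
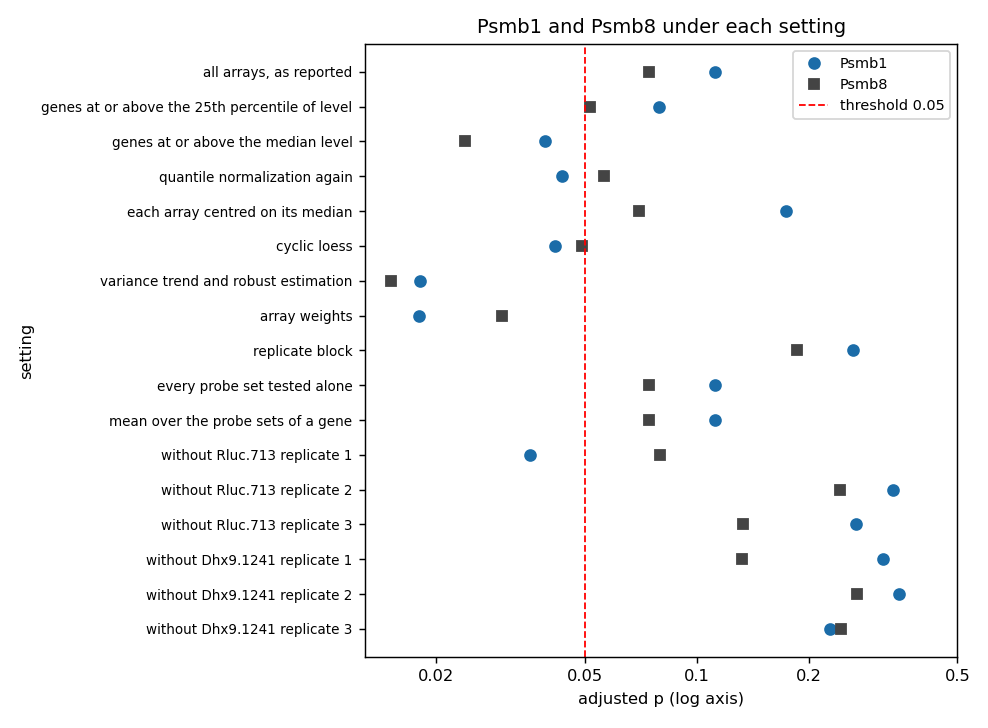
Adjusted p (log axis) of Psmb1 (circles) and Psmb8 (squares) under each setting named on the vertical axis, with the threshold of 0.05 as a dashed line. Psmb1 lies below the line in 6 and Psmb8 in 4 of the 16 alternatives, and both lie above it with all arrays as reported, at 0.112 and 0.0744.

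Genes that work with the proteasome were given by a list of 33, of which 25 were measured here. None passed in the limma test or in any alternative; at an unadjusted p under 0.05, 2 were higher and 4 lower, 24.0% of the partners, against 14.1% of all genes (5.63% lower) and 22.1% of the brighter genes. The median change was -0.016. Nfe2l1, the transcription factor gene that raises proteasome genes when proteasome activity falls, stood at 11.17, 11.14 and 11.2 in the control and 11.02, 11.07 and 10.99 in Dhx9.1241. All Dhx9.1241 arrays were lower, with a change of -0.15 (SE 0.048, interval -0.26 to -0.03, adjusted p = 0.195). Its relative Nfe2l2, which drives the oxidative stress response, stood at 12.12, 12.23 and 12.1 against 12.25, 12.3 and 12.27. All Dhx9.1241 arrays were higher here, with a change of 0.12 (SE 0.053, adjusted p = 0.349).

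Partners that sit in or on the particle showed the same small range. Sem1, a small subunit of the lid, overlapped between the groups with a change of 0.03, and Pomp, the maturation factor of the core, stood at 11.02, 11.12 and 11.12 against 11, 10.95 and 10.99. The Pomp groups were parted only by the step from 11 to 11.02, and the change was -0.11 (adjusted p = 0.393). Txnl1, a thioredoxin-like protein bound to the regulatory particle, had the most negative change of the list, from 10.63 ± 0.047 to 10.47 ± 0.07 (SD, n = 3; change -0.16, adjusted p = 0.202), and Zfand5, an activator of the proteasome, followed with -0.15 (adjusted p = 0.251). Ubqln1, a shuttle for tagged proteins, was 0.12 higher (adjusted p = 0.275). The deubiquitinase genes Usp14 and Uchl5 had changes of -0.02 and -0.07, both with overlapping groups.

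The cell type was checked by marker genes. The 7 measured B cell markers had mean levels between 10.02 and 13.84 and none passed; the 10 fibroblast markers had levels between 5.76 and 9.15 and the 8 T and NK cell markers between 6.2 and 8.29, and none of these passed either. The 10 myeloid markers had levels between 6.43 and 11.67, a range that overlaps that of the B cell markers. Of these 10, 4 were lower in Dhx9.1241 at the threshold, a call made for 1.07% of all genes. The changes of all 10 ran from -1.31 to 0.22, with 8 negative and 2 positive. The most negative change over all genes was also -1.31. The groups did not overlap for 7 of the 10, 5 lower and 2 higher. They also did not overlap for 4 of the 7 B cell markers, 3 lower and 1 higher. Among the other lists this held for 1 of the 8 T and NK cell markers and 0 of the 10 fibroblast markers. Over all genes the share without overlap was 20.1%, and over the brighter genes it was 31.5%. The part of the myeloid markers in the family's values was not tested. The fibroblast markers deviated by 0.195 in the median on control replicate 1 and by -0.056 to 0.032 on the other arrays; their part in the values of that array was not tested.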

How the data were processed

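RNA of 6 lymphoma samples was labelled with a 3′ in vitro transcription kit and hybridised to Affymetrix arrays, according to the labels' protocols. The deposited values are log2 levels that the authors made with RMA, per the submitters' processing notes, with version, probe set definition and genome build not given in the sources used here. RMA brings arrays to a common distribution and can compress folds. That the scale is log2 was read from the values, which run from 3.97 to 14.57. Of 21212 probe sets, 18786 had 1 gene symbol, 6 had several and 2420 are unnamed here and were not tested. Symbols were updated by Entrez number through RefSeq names of GRCm38.p6 (18775 matched). For 2 genes with more than 1 probe set the brightest was used, which left 18784 genes with no filter on level.

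All genes entered 1 fit of the change in limma 3.58.1 (lmFit, eBayes, no covariate; R 4.3.3), and p-values were adjusted over all genes by Benjamini-Hochberg. Lists are described by counts and medians only. The members, the lists, the tests and the rule for named genes were chosen with earlier results of these data known. Array levels are given for the measured catalytic genes, the activators Psme3 and Psme4, and the inducible genes Psmb8, Psmb9 and Psmb10. They are also given for the genes with the largest change in each direction per part of the family, and for a few further genes as examples. Samples of the same replicate number did not regularly deviate together over all genes (correlations -0.271, -0.339 and 0.239 for numbers 1, 2 and 3). The numbers were therefore not taken as pairs. The highest correlation, 0.48, was between control replicate 1 and Dhx9.1241 replicate 2. Some genes are not analysed here: 1 of 42 family genes and some of the 33 partner genes fixed by name. Precision is limited by having 3 arrays a group. Alternatives were filters on level, other normalizations, other variance models, the replicate block, other uses of probe sets and leaving out each array.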

Additional observations from a re-analysis of the deposited data

How the results depend on the processing

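No family gene passed in 10 of 16 alternatives. In the other 6 the count was 1, always Psmb1, in the 20S core. Each of these 6 also called more genes of the whole set than the 590 of the main fit. With only the brighter genes (mean level at or above the median), 991 of the 9392 genes tested were called. Of all 18784 genes, 867 were called after quantile normalization again and 848 after cyclic loess. With array weights the count was 1211, with a robust variance trend 1139 and without control replicate 1 it was 896. Leaving out each array gave 0 to 1 for the family and for the core, and 0 for the regulatory particle, the chaperones, the partners and the inducible genes. The inducible genes had 1 call, Psmb8, in 4 alternatives (brighter genes, cyclic loess, variance trend, array weights). The causes were not tested.

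Over all 18784 genes the count of 590 became 1139 with a variance trend, 1211 with array weights and 264 with the replicate block. It ran from 205 to 896 without 1 array (896 without control replicate 1). With only the brighter genes it was 991 of the 9392 tested. Among those genes the main fit called 311 higher and 173 lower. The block changed no call of a family gene. With each array centred on its median the family median was -0.047, that of the core -0.047 and that of the chaperones 0.026, while the median over all genes moved from 0.005 to -0.021. Without 1 array the family median ran from -0.049 to -0.008, the core median from -0.032 to -0.018, and the particle median from -0.06 to -0.006. The share of calls that were higher was 65.9%, and 55.2% with array weights and 55.5% without control replicate 1. The change of 27 of the 41 genes kept its sign in all alternatives that measured it, and that of 14 turned in at least 1; none of those 14 was called. Psma8 and Psmb11 have no value with only the brighter genes, and Psma8 none with genes from the 25th percentile of level up.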
